A study of Mus musculus with 8 samples.

Results

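Notch targets and modifiers are described here as 10 genes, taken by symbol: the repressors Hes1, Hes6, Hey1, Hey2 and Heyl, the feedback inhibitor Nrarp, the ubiquitin ligase Dtx4, the fringe enzymes Lfng and Mfng, and the DNA-binding factor Rbpj. All 10 were on the array, with 18 of its 45101 probe sets, and all were among the 14598 of 18194 genes bright enough to be tested. A gene is led by its brightest probe set (by mean over all 8 arrays), and its other probe sets serve as a check. RNA was measured in mammary epithelial cells of mice with a germline C/EBPb knockout (KO) and of wildtype mice (WT), from paired sets of glands with 10 mice per group. Lineage-negative (LIN-) cells were sorted as CD24+CD29hi (CD29hi below) or as CD24hiCD29lo (CD29lo below), which gave 4 groups of 2 biological replicates: KO CD29hi, WT CD29hi, KO CD29lo and WT CD29lo. The series set out to find signalling pathways that the transcription factor C/EBPb controls in these stem and progenitor subpopulations. The labels used here state no strain, age, reproductive stage or sort purity, nor which part of Cebpb was deleted. The knockout is germline, so every cell of the animal carries it.

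Notch receptors are cut when a ligand on a neighbouring cell binds them, and the freed intracellular part joins Rbpj on DNA and switches on target genes. Among the targets are several, though not all, of the Hes and Hey genes, which encode basic helix-loop-helix repressors, and Nrarp, which feeds back on the pathway. Fringe enzymes add sugars to the receptors and so change which ligands they answer to, and Deltex proteins such as Dtx4 are ubiquitin ligases that act on the receptor. In the mouse mammary gland, Notch activity is known for promoting the luminal fate, and Rbpj for restraining the expansion of basal stem cells.

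Upstream sequences are shown for Nrarp and Hey2, called between the gates, and for the receptor-modifying enzyme Lfng, because Rbpj acts through a short core motif, TGGGAA, and C/EBP factors through motifs such as TTGCNNAA. RefSeq's promoter table (GRCm38.p6) held 5 of the 10 members (Hes6, Hey2, Nrarp, Lfng and Rbpj) in 7 windows, and both motifs were searched on both strands in the 250 bases before each annotated start. Capitals mark every match in the 3 windows printed, each from the gene's own strand.
Nrarp, chr2:25180508-25180757, plus strand: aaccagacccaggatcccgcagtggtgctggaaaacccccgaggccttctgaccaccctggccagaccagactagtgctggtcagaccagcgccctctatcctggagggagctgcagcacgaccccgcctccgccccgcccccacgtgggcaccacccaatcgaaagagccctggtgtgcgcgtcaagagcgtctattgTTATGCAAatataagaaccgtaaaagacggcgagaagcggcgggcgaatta
Lfng, chr5:140607091-140607340, plus strand: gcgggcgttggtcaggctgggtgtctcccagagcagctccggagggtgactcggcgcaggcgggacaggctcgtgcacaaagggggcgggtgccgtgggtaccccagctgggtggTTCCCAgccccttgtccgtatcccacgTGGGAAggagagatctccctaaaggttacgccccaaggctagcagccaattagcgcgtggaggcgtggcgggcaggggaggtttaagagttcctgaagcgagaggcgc
Hey2, chr10:30842784-30843033, minus strand: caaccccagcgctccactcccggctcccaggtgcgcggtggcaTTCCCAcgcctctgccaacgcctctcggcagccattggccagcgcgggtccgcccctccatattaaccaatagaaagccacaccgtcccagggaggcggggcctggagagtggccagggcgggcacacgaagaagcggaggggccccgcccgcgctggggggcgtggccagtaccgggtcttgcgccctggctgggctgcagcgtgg

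The Lfng window holds the Rbpj core in both orientations, 135 and 108 bases before the start, and the Hey2 window holds it 207 bases before the start. The Nrarp window holds no Rbpj core and a C/EBP core 51 bases before the start. Neither motif occurs in the 2 Hes6 windows, and the Rbpj core occurs in both Rbpj windows. The 2 Rbpj windows overlap each other and share 1 match, and no Rbpj core overlaps a C/EBP core. Of 32851 promoter windows of the same length, 21.6% hold the Rbpj core and 9.56% the C/EBP core, so single matches are common. A match is a stretch of letters, and binding was not measured.

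Cebpb, the gene knocked out, read 8.60 and 9.38 in KO CD29hi and 9.23 and 8.89 in KO CD29lo, against 11.95 and 12.25 in WT CD29hi and 11.83 and 12.18 in WT CD29lo. By this leading probe set all KO arrays were below all WT arrays and still above the background. The difference was -3.11 ± 0.274 (log2 fold change ± SE, KO minus WT) in CD29hi (limma adjusted p = 0.0177) and, within CD29lo, -2.95 ± 0.274 (limma adjusted p = 0.0271). The second Cebpb probe set was too dim to be tested. It read 2.61 and 3.23 in KO CD29hi and 2.25 and 3.06 in KO CD29lo, all below the background. In WT it read 3.9 and 3.85 in CD29hi and 3.6 and 4.61 in CD29lo. Where the probes lie relative to the deletion is not known here. Values are on a log2 scale with array medians from 5.45 to 5.67, and a background of 3.84 to 4.41 was set for each array from 27 bacterial control probe sets. Of 12 basal markers 11 were called higher in CD29hi than in CD29lo averaged over the genotypes, and 9 of 10 luminal markers lower. All 12 and all 10 of these markers lay above the background on every array. Array correlations within a group ran from 0.931 (KO CD29lo) to 0.954 (KO CD29hi). In CD29lo the summed linear level of fibroblast markers was 3961 in KO replicate 1 and 26896 in KO replicate 2. In WT it was 12448 in replicate 1 and 36774 in replicate 2. KO replicate 1, the lowest, and WT replicate 2, the highest, are below called the CD29lo arrays that stood apart. With 2 arrays a group, which replicate is the odd one cannot be told. Values without both arrays are given where a result rests on them, and leave 1 array in each CD29lo group. In CD29lo they set KO replicate 2 against WT replicate 1, which turns the fibroblast difference round and does not remove it. In CD29hi the fibroblast sum was also higher in replicate 2, at 1853 against 834 in KO and 1646 against 836 in WT. All p-values come from limma fitted across all genes and adjusted over them, called at an adjusted p under 0.05, and an interval given is the fit's 95% interval. In sorted bulk RNA, fewer cells of a type and less RNA per cell cannot be told apart.

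**Figure D1:**
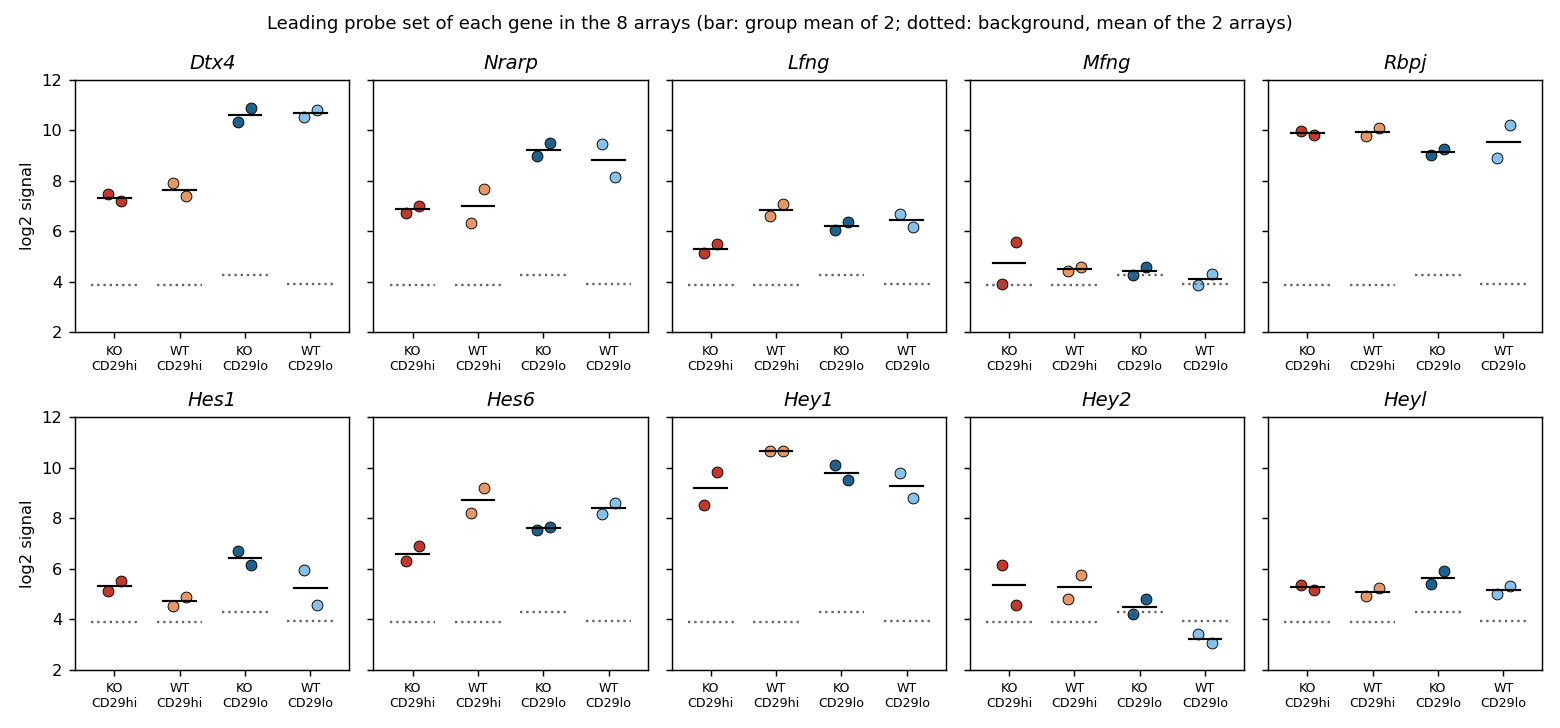
Log2 signal of each gene's leading probe set (vertical axis) in the 4 groups of 2 arrays, KO beside WT within CD29hi and then within CD29lo. Points are arrays, bars the mean of 2, and dotted lines the background. Dtx4 and Nrarp are lower in all 4 CD29hi arrays than in all 4 CD29lo arrays, and Hes6 is lower in all 4 KO arrays than in all 4 WT arrays.

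The members were compared first between the gates, within each genotype. Dtx4 and Nrarp were lower in CD29hi than in CD29lo cells, Dtx4 in both genotypes and Nrarp in the knockout and in the average. Hey2, a dim gene, was called higher in CD29hi in the average only. The other 7 members did not pass in any of these comparisons. In KO cells 2 of 10 members were called, both lower, where 14.1% of all genes tested were called and 6.66% were called lower. In WT cells 1 of 10 was called, lower, against 8.19% of all genes called and 4.23% called lower. Averaged over both genotypes 1 was called higher and 2 lower, against 22.9% of all genes called, 12.2% higher and 10.8% lower. Shares this near the background are no result about the 10 genes as a set.

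At an unadjusted p under 0.05 there were 3 members in KO, 4 in WT and 3 in the average, where 29.1%, 22% and 35.6% of all genes lay under it. In KO cells CD29hi lay wholly above CD29lo for 1 member and wholly below it for 6, against 30.4% and 26.8% of all genes. In WT cells it lay above for 3 and below for 2, against 26% and 26%. Over all 8 arrays it lay above for 0 and below for 2, Dtx4 and Nrarp, against 13.2% and 12.1%. The same 2 members lay below in both genotypes (15.3% of all genes), and none lay above in both (16.9%). The members' median was -0.75 in KO, 0.36 in WT and -0.23 in the average, beside 0.03, 0 and 0.01 over all genes.

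Dtx4, the Deltex-family ubiquitin ligase, had the largest gate difference of the 10. It read 7.46 and 7.21 in KO CD29hi and 7.91 and 7.38 in WT CD29hi, against 10.32 and 10.88 in KO CD29lo and 10.53 and 10.82 in WT CD29lo. The 2 gates did not overlap, and within a gate the genotypes did. The difference was -3.27 ± 0.296 in KO (9.61-fold lower in CD29hi, limma adjusted p = 0.000525) and -3.03 ± 0.296 in WT (8.17-fold lower, limma adjusted p = 0.000995). Averaged over the genotypes it was -3.15 ± 0.209 (limma adjusted p = 5.16e-05). The second Dtx4 probe set gave -3.09 in KO and -3.11 in WT (limma adjusted p = 0.00161 and 0.00223 when each probe set was tested on its own). Dtx4 passed in all 3 comparisons whichever array was left out.

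Nrarp, the Notch-induced ankyrin repeat inhibitor, followed the same order. Its leading probe set read 6.73 and 7.02 in KO CD29hi and 6.31 and 7.67 in WT CD29hi, against 8.97 and 9.49 in KO CD29lo and 9.45 and 8.16 in WT CD29lo. No CD29hi array reached the lowest CD29lo array. The difference was -2.36 ± 0.547 in KO (5.12-fold lower in CD29hi, limma adjusted p = 0.0249) and -1.82 ± 0.547 in WT, which did not pass (limma adjusted p = 0.0867). Averaged over the genotypes it was -2.08 ± 0.387 (4.24-fold lower, limma adjusted p = 0.00627). The second Nrarp probe set read 7.17 and 6.93 in KO CD29hi and 6.33 and 6.17 in WT CD29hi, against 9.37 and 9.04 in KO CD29lo and 8.61 and 7.90 in WT CD29lo. It was tighter between replicates and passed in both genotypes when each probe set was tested on its own, at -2.16 in KO (limma adjusted p = 0.00568) and -2.00 in WT (limma adjusted p = 0.0112). The call in KO by the leading probe set was lost without either KO CD29hi array (limma adjusted p = 0.14 without replicate 1, 0.0819 without replicate 2) or either KO CD29lo array (0.0521 without replicate 1, 0.0971 without replicate 2), while the averaged call held in all 8 such fits. Without both CD29lo arrays that stood apart, the Nrarp difference in WT was -2.46, with 1 array left in WT CD29lo.

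Hey2, a Hey repressor best known from heart and vessel development, was near or below the background in CD29lo and above it in CD29hi. It read 6.13 and 4.57 in KO CD29hi and 4.78 and 5.74 in WT CD29hi, against 4.20 and 4.78 in KO CD29lo and 3.40 and 3.07 in WT CD29lo. Both WT CD29lo arrays and 1 KO CD29lo array lay at or below the background, and the KO groups overlapped. The averaged difference was 1.44 ± 0.438 (limma adjusted p = 0.0467). With WT CD29lo raised to the background it was 2.14-fold higher in CD29hi. The KO CD29lo array below the background was not raised, so this fold is not a lower bound. The call held in 1 of the 8 fits that left out an array, the one without KO CD29hi replicate 2 (limma adjusted p = 0.0243), with adjusted p up to 0.153 in the others. Without both CD29lo arrays that stood apart the averaged difference fell to 1.22, with 1 array left in each CD29lo group. In WT cells alone Hey2 was at least 2.53-fold higher in CD29hi without passing (limma adjusted p = 0.0911), and in KO cells the difference was 0.86 (limma adjusted p = 0.41).

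Hey1, a bright member, did not pass between the gates, although they did not overlap in WT cells. It read 10.65 and 10.66 in WT CD29hi and 9.79 and 8.78 in WT CD29lo, a difference of 1.37 ± 0.466 (limma adjusted p = 0.125). In KO cells the gates overlapped, with 8.53 and 9.84 in CD29hi and 10.10 and 9.49 in CD29lo. Hes1, the best known Hes target of Notch, was at 5.12 and 5.50 in KO CD29hi and 4.52 and 4.89 in WT CD29hi, against 6.71 and 6.13 in KO CD29lo and 5.93 and 4.56 in WT CD29lo. Both KO CD29lo arrays were above the other 6. Its gate difference was -1.11 ± 0.527 in KO (limma adjusted p = 0.206) and -0.82 ± 0.373 in the average (limma adjusted p = 0.153). Hes1 has 1 probe set, so no other probe set checks it.

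Rbpj, the factor that all Notch receptors signal through, was bright in every array. It read 9.96 and 9.80 in KO CD29hi and 9.76 and 10.08 in WT CD29hi, against 9.02 and 9.26 in KO CD29lo and 8.89 and 10.19 in WT CD29lo. The KO gates did not overlap (0.74 ± 0.381, limma adjusted p = 0.242), while WT CD29lo replicate 2 was the highest of the 8 arrays. The averaged difference of 0.56 ± 0.269 did not pass (limma adjusted p = 0.176). It ran from 0.235 to 0.89 when an array was left out, and whether it passed depended on which array that was. The highest value, 0.89, came without WT CD29lo replicate 2. Without both CD29lo arrays that stood apart it was 0.83. Both of these fits leave 1 array in WT CD29lo. The other 2 Rbpj probe sets gave 0.25 and 0.22 in the average and did not pass (limma adjusted p = 0.498 and 0.673 when each probe set was tested on its own).

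**Figure D2:**
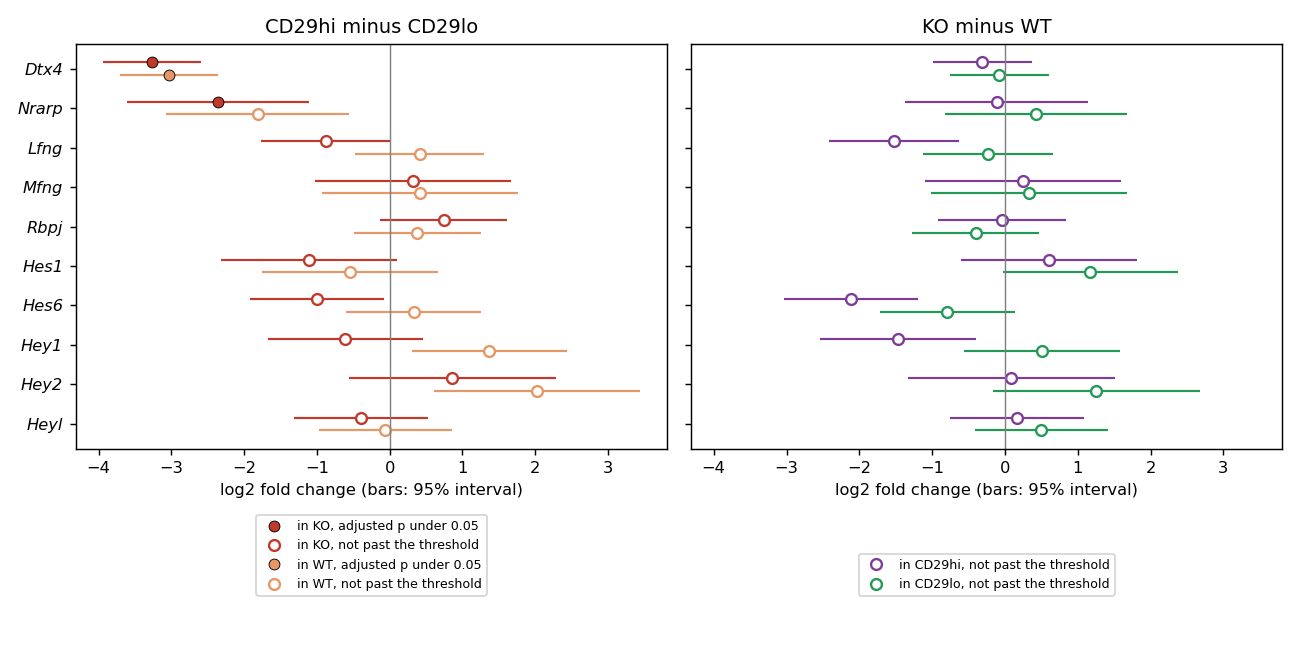
Log2 fold change of the leading probe sets with 95% intervals, on the left CD29hi minus CD29lo in KO and in WT, on the right KO minus WT in CD29hi and in CD29lo. Filled points passed at an adjusted p under 0.05 over all genes. Dtx4 (both genotypes) and Nrarp (KO) are the filled points on the left, and no point on the right is filled.

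Marker levels of other cell types and of tissue dissociation stress also differed between the gates. All 10 fibroblast markers were called lower in CD29hi than in CD29lo in the average. Their summed linear level was 834 to 1853 in KO CD29hi and 836 to 1646 in WT CD29hi, against 3961 to 26896 in KO CD29lo and 12448 to 36774 in WT CD29lo. No basal, luminal, fibroblast, endothelial or pericyte marker was at 0 on any array. KO CD29lo replicate 1, with the lowest fibroblast sum in CD29lo, still lay above every CD29hi array in that sum. It lay above every CD29hi array in Dtx4 and Nrarp as well. None of the 10 endothelial markers was called in the average, and the single pericyte marker called was Notch3, which is a Notch receptor as well. Of 8 blood markers measured 4 were tested, and Cd68, a macrophage lysosomal protein, was called higher in CD29hi (1.44, limma adjusted p = 0.00448). The other 3 tested lay below 0 without a call, and the median of the 4 was -0.41. The summed linear level of the 8 was 442 to 546 in KO CD29hi and 332 to 429 in WT CD29hi. In CD29lo it was 335 to 373 in KO and 284 to 291 in WT. Cd68 was the brightest of the 8 on every CD29hi array and so weighed most in the sum there. The mean log2 signal of the 8 went the other way, lower on every CD29hi array than on every CD29lo array. Cd3e and Hba-a1 were at 0 on 1 array each. Of 12 stress genes such as Fos and Jun 6 were called lower in CD29hi in the average. Their summed level was 38252 to 41828 in KO CD29hi and 32022 to 35874 in WT CD29hi, against 45195 to 51299 in KO CD29lo and 39572 to 42180 in WT CD29lo. The part of these genes and cells in the gate differences was not tested.

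The other genes of the pathway were called in both directions between the gates. Of 59 other pathway genes, grouped by role, 55 had a value and 53 were tested. In the gate average 7 were called higher in CD29hi and 9 lower, where 12.2% and 10.8% of all genes tested were called. Their median was -0.04, beside 0.01 over all genes. All 3 ligands called were higher in CD29hi: Dll1 by 4.43 ± 0.235 (limma adjusted p = 2.22e-05), Jag1 by 2.15 and Jag2 by 1.13. Dll1 read 10.88 and 10.74 in KO CD29hi and 10.65 and 10.65 in WT CD29hi, against 6.44 and 5.78 in KO CD29lo and 6.83 and 6.14 in WT CD29lo. The 2 receptors called were lower in CD29hi, with -2.27 for Notch3 (limma adjusted p = 0.00128) and -0.80 for Notch1 (limma adjusted p = 0.01). The 3 called ligands were thus higher in the gate where Dtx4 and Nrarp were lower.

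Of 4 other Deltex genes, 2 were called lower in the same gate as Dtx4 and 2 were not called. Dtx3l, a Deltex-like ligase known mainly from DNA damage and interferon responses, was lower in CD29hi in KO (-2.65), in WT (-2.30) and in the average (-2.47 ± 0.161, limma adjusted p = 4.86e-05). Dtx1, a Notch target in lymphocytes, was lower in the average (-2.72, limma adjusted p = 0.00793), and WT CD29hi replicate 1 was below the background. The difference was 0.26 for Dtx2 (limma adjusted p = 0.452) and 0.56 for Dtx3 (limma adjusted p = 0.188), on the other side of 0. Also called higher in the average were the Notch O-glucosyltransferase Poglut1 (1.65), the coactivators Maml2 (1.12) and Kat2a (0.93) and the ligase for ligands Mib1 (0.74). Also called lower were the protease Adam10 (-0.71), the gamma-secretase subunit Psenen (-0.64), the acetyltransferase Kat2b (-0.92), the corepressor Cir1 (-0.78) and the Hes-related repressor Bhlhe40 (-1.23). Of the Hes family outside the members, 4 of 6 genes were tested and Bhlhe40 alone passed.

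**Figure D3:**
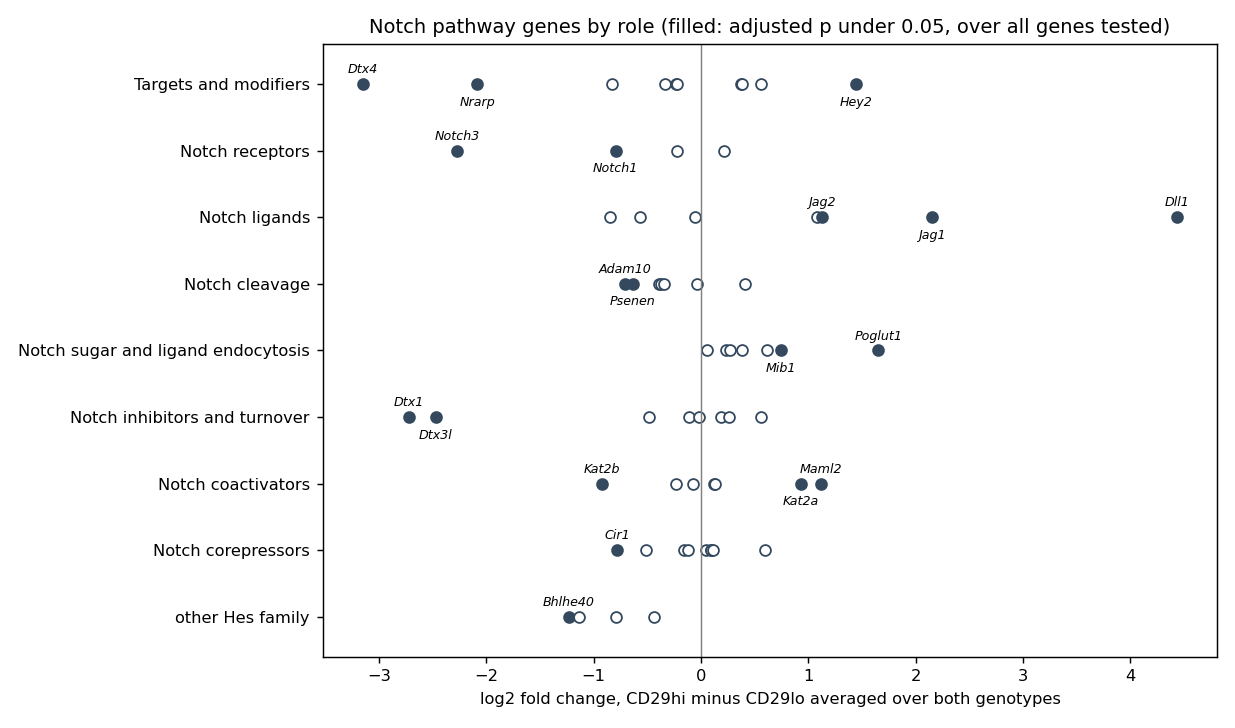
Log2 fold change, CD29hi minus CD29lo averaged over both genotypes, for the 10 targets and modifiers in the top row and for 53 other Notch pathway genes by role below. Filled points passed at an adjusted p under 0.05 over all genes. The called ligands Dll1, Jag1 and Jag2 lie right of 0, and Dtx4, Nrarp, Notch1 and Notch3 lie left of it.

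The second comparison set the knockout against wildtype. By limma 0 members were called in either gate or in the average. At an unadjusted p under 0.05 there were 3 members in CD29hi (Hes6, Lfng and Hey1), 0 in CD29lo and 3 in the average (Hes6, Lfng and Hes1), where 7.84%, 6.68% and 9.27% of all genes lay under it. The shares called over all genes were 0.0137%, 0.0137% and 0.0685%. In CD29hi 3 members had KO arrays below both WT arrays and 1 had them above, against 21.2% and 18.3% of all genes. In CD29lo 1 lay below and 3 above, against 19.6% and 14.7%. Over all 8 arrays 1 member, Hes6, lay below and 0 above, against 2% and 1.24%. The members' median was -0.08 in CD29hi, 0.38 in CD29lo and -0.02 in the average, beside -0.02, -0.06 and -0.05 over all genes.

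Hes6, an atypical Hes factor that in mouse cells opposes Hes1, came closest to a call. It read 6.29 and 6.91 in KO CD29hi, against 8.22 and 9.21 in WT CD29hi. In CD29lo it read 7.54 and 7.65 in KO, against 8.18 and 8.59 in WT. Every KO array was below every WT array, and KO lay below WT in both gates for 5.56% of all genes. The difference was -2.12 ± 0.403 in CD29hi (interval -3.04 to -1.19, limma adjusted p = 0.264), -0.79 ± 0.403 in CD29lo (limma adjusted p = 0.766) and -1.45 ± 0.285 in the average (2.74-fold lower in KO, limma adjusted p = 0.184). Within the knockout its gate difference was -0.99 (limma adjusted p = 0.144).

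The leading Hes6 probe set carries the maker's suffix for probes that may also match other transcripts. The second Hes6 probe set was dim, with 4.07 and 4.47 in KO CD29hi and 5.13 and 4.36 in WT CD29hi, and 4.64 and 4.63 in KO CD29lo and 5.11 and 4.90 in WT CD29lo. It gave -0.48 in CD29hi and -0.37 in CD29lo (limma adjusted p = 0.931 and 0.928 when each probe set was tested on its own), and its CD29hi groups overlapped. The Hes6 values therefore rest on a single bright probe set.

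Lfng, the fringe enzyme with a known role in mammary progenitors of the mouse, read 5.13 and 5.51 in KO CD29hi, against 6.59 and 7.10 in WT CD29hi. In CD29lo it read 6.05 and 6.35 in KO, against 6.68 and 6.19 in WT. The groups did not overlap in CD29hi (-1.52 ± 0.389, interval -2.42 to -0.63, limma adjusted p = 0.321) and overlapped in CD29lo (-0.23 ± 0.389, limma adjusted p = 0.933). The average was -0.88 ± 0.275 (limma adjusted p = 0.365). By this leading probe set KO CD29hi was the lowest of the 4 groups, with a gate difference within the knockout of -0.88 (limma adjusted p = 0.177).

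The second Lfng probe set was dim. It read 5.06 and 4.41 in KO CD29hi and 4.71 and 4.97 in WT CD29hi, against 4.11 and 4.02 in KO CD29lo, both below the background, and 4.96 and 5.38 in WT CD29lo. Its difference was -0.11 in CD29hi (limma adjusted p = 0.989 when each probe set was tested on its own). In CD29lo, with KO raised to the background, it was at least 1.84-fold lower in KO and did not pass (limma adjusted p = 0.766). Its lowest group was KO CD29lo. Within the knockout it was at least 1.36-fold higher in CD29hi without passing (limma adjusted p = 0.413), the other direction from the leading probe set. By these values the larger KO minus WT difference lay in CD29hi for 1 Lfng probe set and in CD29lo for the other, and whether the probe sets differ was not tested.

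Hey1 read 8.53 and 9.84 in KO CD29hi, against 10.65 and 10.66 in WT CD29hi, without overlap and with a difference of -1.47 ± 0.466 (interval -2.54 to -0.40, limma adjusted p = 0.487). In CD29lo it read 10.10 and 9.49 in KO, against 9.79 and 8.78 in WT, and the difference was 0.51 ± 0.466 (limma adjusted p = 0.874). Without both CD29lo arrays that stood apart it was -0.30. The KO minus WT difference in CD29hi minus that in CD29lo was -1.98 ± 0.659 and did not pass (limma adjusted p = 0.961). For the leading probe sets of Hes6 and Lfng this contrast was -1.33 and -1.29 (limma adjusted p = 0.961 each). The second Hes6 probe set gave -0.105 and the second Lfng probe set 1, on the other side of 0 (limma adjusted p = 0.997 and 0.975 when each probe set was tested on its own). At an unadjusted p under 0.05 the leading probe sets of Hey1, Hes6 and Lfng were 3 of 10 members, against 4.95% of all genes, of which 0 were called.

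Over the whole set, by leading probe sets, the KO minus WT difference was lower in CD29hi than in CD29lo for 9 of the 10 members, Rbpj being the other one. The median of this contrast (KO minus WT in CD29hi minus the same in CD29lo) was -0.56, against 0.05 over all genes, of which 46.5% were below 0. The median lay between -1.15 and -0.42 in the 8 fits that left out an array, and the count below 0 between 7 and 9 of 10. The first array of either WT group moved the median most, to -1.15 when left out of CD29lo and to -0.99 when left out of CD29hi. By second probe sets Dtx4 gave 0.02 and Lfng 1, above 0, while Hes6 gave -0.105 and Nrarp -0.15. The 10 members share these 8 arrays and are not replicates, so the count carries no test.

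Hes1 stood on the other side, higher in KO in both gates without passing. It read 5.12 and 5.50 in KO CD29hi, against 4.52 and 4.89 in WT CD29hi, and 6.71 and 6.13 in KO CD29lo, against 5.93 and 4.56 in WT CD29lo. Both WT CD29hi arrays and WT CD29lo replicate 2 were dim, not far above their backgrounds of 3.84, 3.94 and 3.99. KO lay above WT in each gate, as it did in both gates for 3.85% of all genes. The difference was 0.60 ± 0.527 in CD29hi (limma adjusted p = 0.875), 1.18 ± 0.527 in CD29lo (interval -0.03 to 2.38, limma adjusted p = 0.749) and 0.89 ± 0.373 in the average (limma adjusted p = 0.524). Without both CD29lo arrays that stood apart it was 0.20 in CD29lo and 0.40 in the average. Stress genes were above 0 in KO minus WT for 10 of 12 in CD29hi and 12 of 12 in CD29lo, with medians of 0.23 and 0.26 and 0 called, and their part in the Hes1 values was not tested. Hey2 was likewise above WT in CD29lo, at least 1.48-fold, with both WT arrays below the background (limma adjusted p = 0.755).

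Of the remaining members, Dtx4, Mfng and Rbpj overlapped between the genotypes in both gates. Dtx4 averaged 7.33 ± 0.177 in KO CD29hi and 7.64 ± 0.375 in WT CD29hi, and 10.60 ± 0.396 in KO CD29lo and 10.68 ± 0.205 in WT CD29lo (SD, n = 2 each). The interval of its genotype difference was -0.99 to 0.37 in CD29hi and -0.75 to 0.60 in CD29lo, so a knockout effect as large as its gate difference lies outside both. Nrarp overlapped between genotypes in both gates by its leading probe set, while by the second KO lay wholly above WT in both gates, by 0.80 and 0.95, without passing (limma adjusted p = 0.712 and 0.729 when each probe set was tested on its own). Rbpj averaged 9.88 ± 0.113 in KO CD29hi and 9.92 ± 0.226 in WT CD29hi, and 9.14 ± 0.17 in KO CD29lo and 9.54 ± 0.919 in WT CD29lo (SD, n = 2 each). Its intervals ran from -0.91 to 0.83 in CD29hi and from -1.27 to 0.47 in CD29lo.

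Heyl and Mfng were dim. Heyl, a Hey gene of vascular smooth muscle, read 5.36 and 5.15 in KO CD29hi and 4.93 and 5.25 in WT CD29hi, and 5.41 and 5.89 in KO CD29lo and 5.0 and 5.3 in WT CD29lo. KO lay above WT without overlap in CD29lo, where the difference did not pass (limma adjusted p = 0.855). Its other 2 probe sets were too dim to be tested, and 1 of their 16 values lay above the background. Mfng, the fringe enzyme best known from lymphocytes, read 3.93 and 5.58 in KO CD29hi and 4.44 and 4.58 in WT CD29hi, and 4.26 and 4.60 in KO CD29lo and 3.86 and 4.33 in WT CD29lo. Of the KO CD29lo arrays 1 was below the background, and the spread in KO CD29hi was wider than any difference between groups. The interval of the Mfng genotype difference in CD29hi ran from -1.10 to 1.59.

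**Figure D4:**
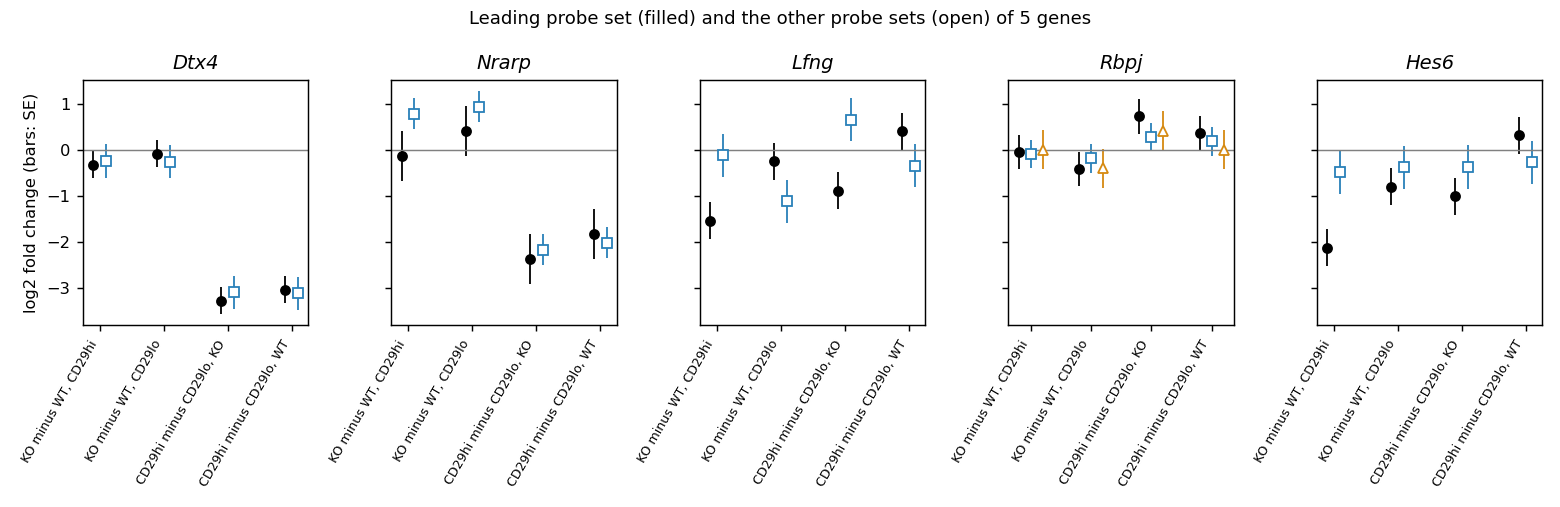
Log2 fold change with SE (vertical axis) of the leading probe set (filled) and the other tested probe sets (open) of 5 members, for KO minus WT in each gate and CD29hi minus CD29lo in each genotype. The 2 Dtx4 and the 2 Nrarp probe sets lie near each other in the gate differences. The 2 Lfng probe sets lie apart in both genotype differences and on opposite sides of 0 in both gate differences. KO CD29lo of the second Lfng probe set was below the background, so its points there overstate what can be measured.

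Other gene groups lay to one side between the genotypes in CD29hi, beside Hes6, Lfng and Hey1. All 15 tested cell cycle genes were below 0, with a median of -3.04 and 0 called. Their summed linear level was 3077 to 3792 in KO CD29hi, against 6285 to 10563 in WT CD29hi, and 1 of the 16 measured, Plk1, was at 0 on 1 array. Luminal progenitor markers were below 0 in 10 of 10, with a median of -1.20 and 0 called, and their summed level was 3307 to 8494 in KO CD29hi, against 8598 to 12266 in WT CD29hi. In CD29lo the sum of the 10 fibroblast markers was 3961 to 26896 in KO, against 12448 to 36774 in WT. The part of these groups in the members' genotype differences was not tested.

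The rest of the pathway gave no call either. Of the 53 other pathway genes 0 were called in CD29hi, in CD29lo or in the average by limma, and 9, 5 and 7 had an unadjusted p under 0.05, where 7.84%, 6.68% and 9.27% of all genes did. The smallest p in CD29hi belonged to the receptors Notch2 (-0.53, limma adjusted p = 0.307) and Notch1 (-0.91, limma adjusted p = 0.321) and the protease Adam17 (-0.76). In CD29lo the ligand Dll4 (at least 1.56-fold higher in KO, with both WT arrays below the background, limma adjusted p = 0.658), Adam17 (-0.59) and Notch2 (-0.35) had the smallest p. In the average it was Notch2 (-0.44), Adam17 (-0.67) and the repressor Bhlhe41 (1.17, limma adjusted p = 0.346). The median of the 53 was -0.02 in CD29hi and 0.03 in CD29lo.

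Across the 8 arrays, the genes whose values ran most like those of a member were taken from about 9830 tested genes with a range of 1 log2 unit or more. For Dtx4 these were Acsbg1 (Pearson r = 0.994, Spearman rho = 0.905) and Cxcl17 (r = 0.993, rho = 1). For Nrarp they were Dsc2 (r = 0.986, rho = 0.905) and Tspan14 (r = 0.981, rho = 1). All 4 share with Dtx4 and Nrarp the split of the 8 arrays into gates. For Hes6 they were Pxmp4 (r = 0.975, rho = 0.976) and Klhl24 (r = 0.962, rho = 0.905), and for Hes1 they were Tnf (r = 0.987, rho = 1) and 2210409D07Rik (r = 0.983, rho = 0.994). These are descriptions over 8 arrays of 4 groups, the highest of many, and carry no p.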

How the data were processed

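The authors' deposited values are 1 log2 signal per probe set and array, with a floor at 0. That they are log2 follows from their range, and no source used here gives the authors' summarization or scaling of the arrays. Per the labels' protocols, RNA was isolated with the PicoPure kit, amplified with a NuGEN FFPE kit and labelled as biotinylated cRNA by the Affymetrix protocol. No further normalization was applied, and the number of arrays limits the precision. Probe sets were named by the platform's annotation table, where 34958 of 45101 carry 1 gene, 932 several and 9211 none. Of the 34958, 34754 matched a gene ID in a RefSeq table, used for names only. The probe set with the highest mean represented each gene, and a gene was tested if that mean reached 3.51, the 25th percentile over probe sets.

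limma 3.58.1 in R 4.3.3 fitted the 4 groups (lmFit, and eBayes with a trend, degrees of freedom 4 residual, 4.31 prior). From it came 7 contrasts, two-sided and adjusted by Benjamini-Hochberg over 14598 genes. The fit was tested on simulated data. Each array's background is the 95th percentile over its 27 Bacillus control probe sets. A group with both arrays at or below it was raised to it, and the fold is then given as "at least". Python 3.11.15 with matplotlib 3.10.9 made the figures.

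The members, lists and settings were chosen with earlier results of these data known. The text names all members, and other pathway genes that passed or had the 3 smallest p in a contrast. Genes of like pattern are the 2 of highest Pearson correlation. Alternatives were quantile normalization, other filters, the mean of probe sets, no trend, a fit of the compared arrays alone, a replicate block, values raised to the background, and leaving out each array. Chosen after seeing the data were every probe set tested on its own and both CD29lo arrays that stood apart left out. A comparison of protein sequences was planned and not made. The labels name paired sets of glands but not which arrays they are. Deviations of arrays with the same replicate number from their group means correlated between 0.0056 and 0.321 over the 6 pairs of groups. The highest correlation was between KO CD29lo and WT CD29lo. The numbers were not taken to pair the arrays.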

Additional observations from a re-analysis of the deposited data

How the results depend on the processing

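With 2 arrays a group and biological replicates of pooled mice, a member had to differ widely to pass. Dim members (Hey2, Heyl, Mfng and, on most WT arrays, Hes1) lie near the background. Dtx4 passed in KO, in WT and in the average under every alternative run in which it was tested, and Nrarp in the average. In KO the count of members called between the gates was 1 without a trend, where Nrarp gave limma adjusted p = 0.0581, and 1 to 2 when an array was left out. In WT it was 2 with the mean of probe sets, Nrarp being the one added. Hey2 lost its averaged call with no filter, no trend, values raised to the background or every probe set tested (limma adjusted p = 0.0573, 0.0598, 0.0782 and 0.0563). For KO minus WT 0 members were called under any alternative. Among the member differences printed, those of Hey1 and Lfng in CD29lo, neither of which passed, turned their sign: Hey1 was -0.30 without both CD29lo arrays that stood apart, and Lfng ran from -0.48 to 0.01 when an array was left out. The other 39 member values, of which 0 passed, turned their sign in 43 of 664 fits, with 0 past the threshold. The filter at the 50th percentile kept 6 of the 10 members. Over all genes, the number called between the gates in KO was 722 to 1913 when an array was left out, against 2053 with all arrays. In WT it was 512 to 1383 against 1196, and in the average 1995 to 3077 against 3345. For KO minus WT averaged it was 3 to 21 against 10, and without a trend 4. The causes were not tested.

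Under a replicate block the counts of members called were 2 in KO and 1 in WT as before. In the average the block gave 2, since Hey2 was lost (1.44, limma adjusted p = 0.0557), and it changed no other member's call. The numbers are not known to pair the arrays.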
